A study of Mus musculus with 6 samples.

Results

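The leukocyte integrins are a family of adhesion receptors of white blood cells and microglia. Of their subunit genes 7, Itgax, Itgam, Itgal, Itgad, Itgb2, Itgb7 and Itga4, were followed here in mouse hindbrain. Every non-control probe whose gene name in the scanner files was one of these subunits was taken, which gave 18 of 56605 probes. The genes were selected on their signals in the transgenic against wild-type contrast of these same arrays, so their values in that contrast are a description and are given without p-values. Total RNA from brainstem and cerebellum of 16-week-old mice was hybridised to single-colour (Cy3) mouse arrays, 1 array per sample. There were 3 samples from mice labelled MSA transgenic and 3 from wild-type mice, all on one mixed C57BL/6, 129 and C3H background. The labels neither name the transgene or its promoter nor spell out MSA, and they do not say that the samples are separate animals, so the spread between samples may be technical.

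Each integrin is a pair of one alpha and one beta chain that spans the membrane, and it binds its ligands once signals inside the cell have switched it to an open form. Itgb2 encodes the shared beta2 chain (CD18), which pairs with the alpha chains of Itgal (CD11a, in LFA-1), Itgam (CD11b, in Mac-1 or complement receptor 3), Itgax (CD11c, in complement receptor 4) and Itgad (CD11d). Itga4 encodes the alpha4 chain, which pairs with beta7, the product of Itgb7, or with beta1. In the brain, microglia carry CD11b and CD18, and CD11c is known as a marker of activated microglia and of dendritic cells.

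The 18 probes are 60-base oligonucleotides, and the sequences of those that decided the values are shown because probes of one gene gave different readings. Coordinates are those of the files, on build mm9. No annotation of that build was used, so exon or UTR positions are not given. The first Itgax probe lies at chr7:135294052-135294111 and was the only one of 3 to give a clear signal. The others lie at chr7:135277352-135277411, from a GenBank cDNA, and at chr7:135284029-135284088.
Itgax probe A_51_P303424: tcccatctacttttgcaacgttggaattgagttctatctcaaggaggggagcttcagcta
Itgax probe A_52_P424887: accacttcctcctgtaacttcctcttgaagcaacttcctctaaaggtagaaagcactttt
Itgax probe A_55_P2823539: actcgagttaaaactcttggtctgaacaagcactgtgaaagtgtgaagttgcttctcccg
Itgb2 has 1 probe, at chr10:77027978-77028037, and the 2 Itgad probes lie at chr7:135348901-135348960 and chr7:135348577-135348636.
Itgb2 probe A_51_P262208: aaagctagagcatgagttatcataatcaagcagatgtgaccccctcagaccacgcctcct
Itgad probe A_66_P127775: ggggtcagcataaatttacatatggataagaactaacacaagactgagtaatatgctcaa
Itgad probe A_55_P2733872: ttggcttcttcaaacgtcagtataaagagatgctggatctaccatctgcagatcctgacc
The 2 Itgam probes lie at chr7:135261755-135261814 and chr7:135212140-135212199. Capitals in the first mark a run of 20 bases that alternates C and A.
Itgam probe A_55_P1977934: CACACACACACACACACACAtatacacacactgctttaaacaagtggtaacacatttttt
Itgam probe A_55_P1977926: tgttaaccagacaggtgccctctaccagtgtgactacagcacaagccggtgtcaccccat
Of the 3 Itgal probes a pair, at chr7:134474711-134474767 and chr7:134474706-134474766, reads the same stretch of a GenBank cDNA. Capitals mark the 56 bases the pair shares, so both are not independent readings. The remaining one, at chr7:134477160-134477219, lies on the RefSeq mRNA.
Itgal probe A_55_P2184606: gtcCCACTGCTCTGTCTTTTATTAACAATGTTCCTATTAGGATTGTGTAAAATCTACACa
Itgal probe A_55_P2935675: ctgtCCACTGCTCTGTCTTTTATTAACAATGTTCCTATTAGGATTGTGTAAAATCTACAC
Itgal probe A_51_P466378: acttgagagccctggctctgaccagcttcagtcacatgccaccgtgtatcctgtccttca

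Levels are given as the spot signal in percent of the array's 75th percentile, and levels of different probes were not compared. A probe was tested where it lay well above background, by the scanner software's flag, on all arrays of at least 1 genotype. Of the 18 probes, 9 lay well above background on all 6 arrays, 4 on some and 5 on none. In all 12 probes were tested, and they covered each of the 7 genes. The probe with the highest mean stood for its gene. A gene that passed only through the genotype in which it was bright was let in by the values compared, which favours a difference. The Itgax probe was of this kind, being well above background on 3 of 3 transgenic arrays and on 1 of 3 wild-type arrays.

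The other 5 arrays shared slide 2, but wild-type replicate 1 sat by itself on slide 1 with its own scan. Its 75th percentile was 405.7 intensity units, against 535.0 to 609.2 on the others, and 64.8% of its probes lay well above background, against 68.6% to 71.7%. Values within slide 2 (3 transgenic and 2 wild-type arrays) are given beside the integrin genes and beside list values that they change by over 1.5 times. All 8 hindbrain markers, among them Pcp2 of Purkinje cells and Gabra6 of granule cells, lay well above background on every array.

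Itgax was the integrin gene with the largest difference. Its level was 29.6%, 23.9% and 32.7% in transgenic samples, against 2.91%, 1.65% and 1.94% in wild-type samples. Every transgenic value lay above every wild-type value, and the 2 lowest wild-type values were not well above background. The mean log2 level was -1.81 ± 0.23 (SD, n = 3) in transgenic and -5.57 ± 0.42 (SD, n = 3) in wild-type samples. The log2 difference was 3.76 ± 0.24 (SE), or 13.5-fold. It was 3.99 within slide 2, where neither wild-type signal was well above background. Since 1 of 3 wild-type arrays measured the probe above background, the size of this difference depends on how background is treated. With normexp background correction, which starts from the unsubtracted spot signals and adds an offset of 50 units, it was 1.42. In the software's background-subtracted signals, used otherwise, this probe had 9.3 to 11.8 units on the wild-type arrays.

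The other 2 Itgax probes did not repeat this separation. The GenBank probe had 3.01%, 1.40% and 2.83% in transgenic samples, against 0.556%, 0.710% and 2.86% in wild-type samples. It was above background on 2 transgenic arrays and 1 wild-type array, and the groups overlapped. The probe at chr7:135284029-135284088, on the same RefSeq mRNA as the bright one, stayed below the background limit on all 6 arrays, with levels between 0.369% and 0.521%. No 20-base stretch of any of the 3 Itgax probes occurred in a probe of another gene name.

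Itgb2, the beta2 chain that CD11c needs as its partner, was also higher in transgenic samples. It stood at 19.8%, 16.4% and 20.4% in transgenic samples, against 10.66%, 10.2% and 9.64% in wild-type samples. The groups were apart and all 6 signals lay well above background. The log2 difference was 0.89 ± 0.11 (SE), or 1.85-fold, and 0.93 within slide 2. With normexp it was 0.44, so its size rests in part on the treatment of background.

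**Figure D1:**
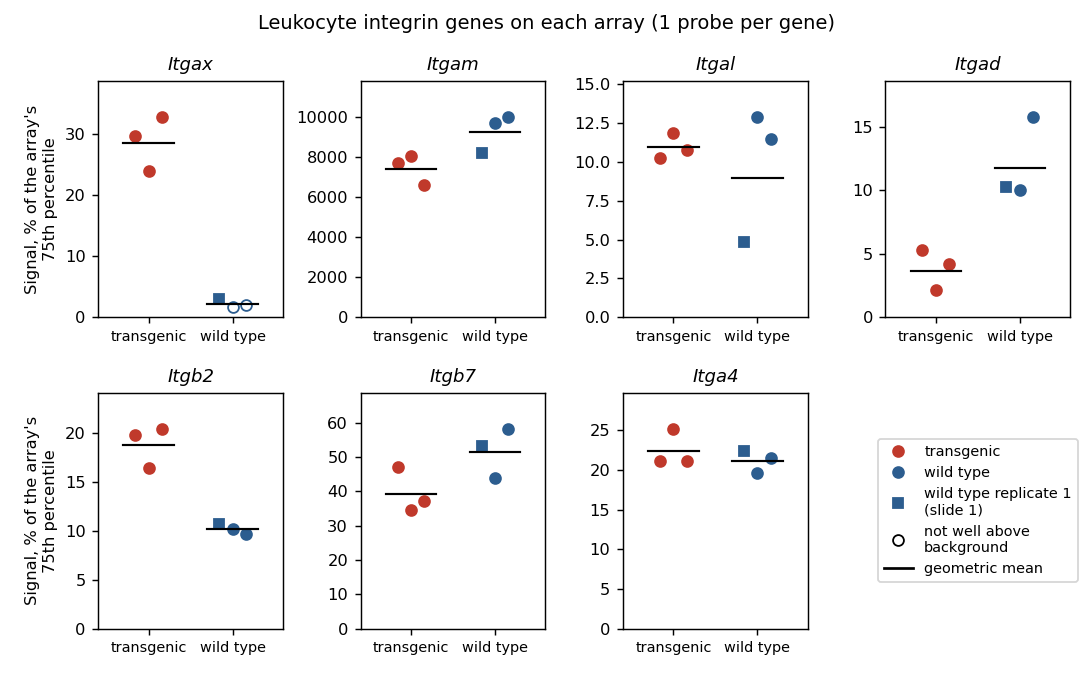
Signal of the probe that stands for each of the 7 genes, in percent of the array's 75th percentile, on each of the 3 transgenic and 3 wild-type arrays. Each panel has its own axis from 0, lines are geometric means, the square is wild-type replicate 1 on slide 1 and open symbols were not well above background. Itgax and Itgb2 lay higher and Itgad and Itgam lower in transgenic samples with no overlap, while Itgal, Itgb7 and Itga4 overlapped. The Itgam probe shown is the one with the CA run, and on the second Itgam probe the groups overlapped.

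Itgad differed in the other direction. Its brighter probe had 5.33%, 2.17% and 4.18% in transgenic samples, against 10.3%, 10.05% and 15.8% in wild-type samples. The second probe had 2.40%, 0.576% and 1.02% in transgenic samples, against 5.86%, 6.79% and 8.60% in wild-type samples. The groups did not overlap on either probe. The second passed the filter through wild type alone, being well above background on 1 of 3 transgenic and 3 of 3 wild-type arrays. The filter thus favoured a difference on this probe, and it adds no support. The log2 differences were -1.69 ± 0.37 (SE) and -2.64 ± 0.51 (SE), and -1.79 and -2.77 within slide 2. With normexp the brighter probe had -0.82. Transgenic replicate 2 was the lowest on both probes, and without it the brighter probe had -1.32.

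Itgam is read by 2 probes of unlike sequence. The probe that stood for it is the one with the CA run, and its levels were 7681%, 8013% and 6614% in transgenic samples, against 8187%, 9685% and 9977% in wild-type samples. These groups were apart by a small gap, with a log2 difference of -0.32 ± 0.12 (SE), and -0.41 within slide 2. The run is not particular to this probe, since 29 probes of other names shared at least 20 bases with it. Across the array 32 probes held such a run of 20 bases or more, and the median of their signals was at the 98.8th percentile of all probes, and the lowest of them was at 75.1. How much of the signal comes from the run was not tested. The second Itgam probe, which has no run of this kind, had 4.30%, 6.25% and 3.64% in transgenic samples, against 3.55%, 6.50% and 5.66% in wild-type samples. These values overlapped, and the log2 difference was -0.14 ± 0.29 (SE), and -0.40 within slide 2.

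Itgal, the alpha chain of LFA-1, had 10.3%, 11.9% and 10.8% in transgenic samples, against 4.85%, 12.9% and 11.5% in wild-type samples. The groups overlapped, and the low wild-type value was replicate 1 of slide 1. The log2 difference was 0.29 ± 0.38 (SE), and -0.15 within slide 2. The overlapping second probe had 0.76 ± 0.56 (SE) and the RefSeq probe 0.45 ± 0.30 (SE), against 0.08 and 0.11 within slide 2. On all 3 probes wild-type replicate 1 was the lowest of the 6 arrays.

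Of the alpha4 and beta7 pair, Itgb7 had 47.0%, 34.7% and 37.1% in transgenic samples, against 53.1%, 43.9% and 58.2% in wild-type samples. The groups overlapped, with a log2 difference of -0.39 ± 0.16 (SE), and -0.36 within slide 2. Itga4, which is read by 6 probes, had 21.1%, 25.2% and 21.1% on the brightest in transgenic samples, against 22.4%, 19.6% and 21.4% in wild-type samples. Here too the groups overlapped, and the log2 difference was 0.09 ± 0.11 (SE), and 0.13 within slide 2. A second Itga4 probe, on an Ensembl transcript, had -0.09 ± 0.22 (SE), and -0.14 within slide 2. The other 4, of which 3 are on Ensembl transcripts and 1 on the RefSeq mRNA, stayed below that limit on all 6 arrays.

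**Figure D2:**
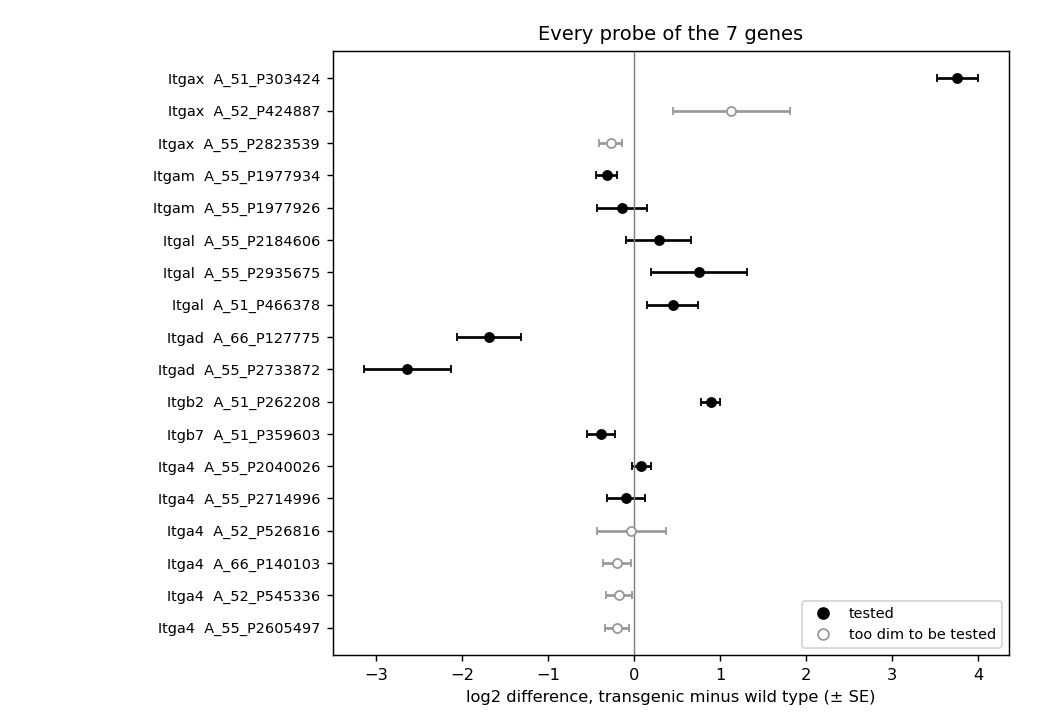
The log2 difference, transgenic minus wild type, of each of the 18 probes with its standard error (3 arrays per genotype). Filled points are the 12 tested probes and open points the 6 that were too dim. One Itgax probe stands at 3.76 and both Itgad probes stand below -1.6, while the probes of Itgal, Itgb7 and Itga4 lie within 0.8 of 0.

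Among 24932 genes fitted with limma (adjusted p under 0.05), Itgax was called and the other 6 integrin genes were not. This is 1 of 7 higher and 0 of 7 lower. Of all genes 0.0441% were called, 0.0361% higher and 0.00802% lower. Groups that did not overlap were found for 2 genes in the higher direction, beside 7.4% of all genes. Such groups were found for 2, Itgad and Itgam, in the lower direction, beside 7.5%. Itgam was apart only on the probe with the CA run. Since the genes were selected on this contrast, nothing is read from these counts. The median log2 difference of the 7 genes was 0.09, beside 0.00 for all genes, and 4 of the 7 were positive, beside 49.9%. Within slide 2 the median of the 7 was -0.15, with 3 positive. Their differences ran from -1.69 to 3.76. Itgax was called under 11 of the 18 settings that tested it, the reported one included, and Itgb2 under 1 (array weights). Some of the 11, such as averaging a gene's probes or leaving out an Itgam probe, left the Itgax values as they were. The 11 are therefore not separate checks, and nothing is read from this count of settings either.

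**Figure D3:**
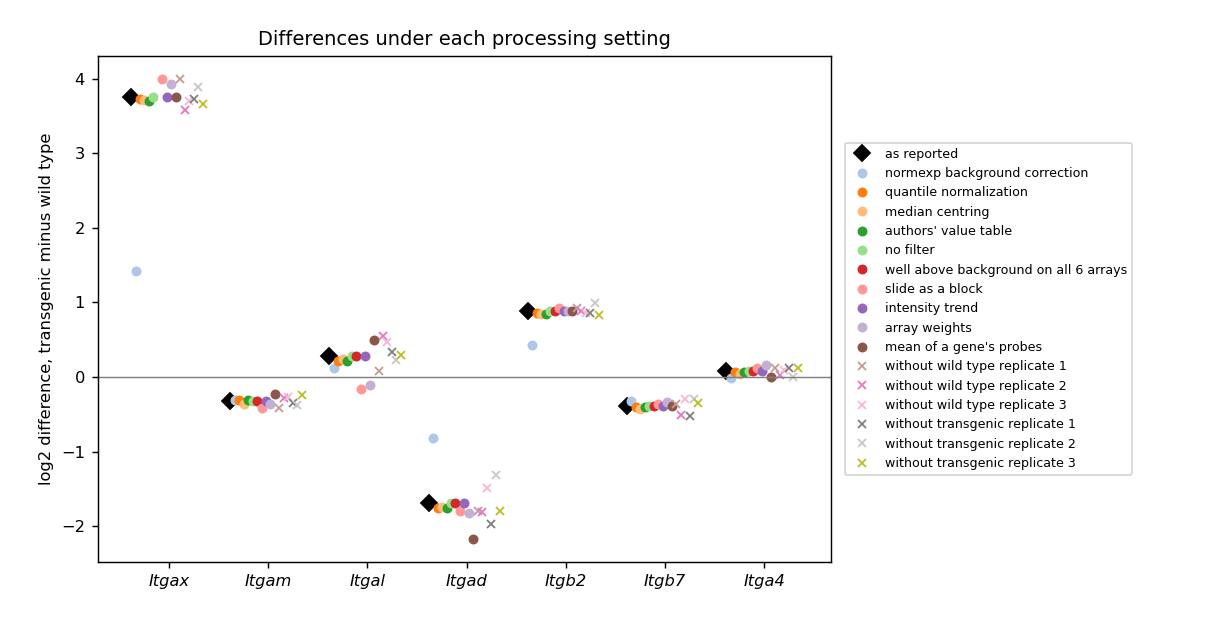
The log2 difference, transgenic minus wild type, of each of the 7 genes as reported (black diamonds), under 10 other settings (circles) and with each array left out in turn (crosses). Itgax stayed between 1.42 and 3.99 and Itgb2 between 0.44 and 0.99, both positive throughout, Itgad stayed negative, and Itgal and Itga4 lay on both sides of 0. Every Itgax value is from the same probe.

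Itgam, Itgax and Itgad are neighbours on chromosome 7. The gap between the Itgam and Itgax probes was 15.5 kb and that between the Itgax and Itgad probes 54.5 kb, all within 137 kb, and Itgal lay 735 kb from Itgam. In the 874 kb from the Itgal to the Itgad probes, 50 other genes were tested and 0 were called by limma. Their log2 differences lay between -0.39 and 0.59 with a median of 0.02. Itgax lay above and Itgad below every other tested gene of the stretch. Since Itgax and Itgad were selected on this contrast, nothing is read from their place outside that range.

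The pattern of Itgax over the 6 arrays was most like those of Clec7a, a receptor for fungal beta-glucans (Pearson r = 0.999), Gstm5, a glutathione transferase gene (0.997), and Atf3, a stress-induced transcription factor gene (0.997), among 15962 named genes. The pattern of Itgb2 was most like those of Pld4, an endolysosomal nuclease gene of myeloid cells (r = 0.999) and Smoc1, which encodes a secreted calcium-binding protein (0.994). The log2 differences were 3.32 for Clec7a, which was called, 0.69 for Gstm5, 0.75 for Atf3, 0.67 for Pld4 and 0.39 for Smoc1. With 6 arrays in 2 genotypes many genes had a high r. Of the 15962 named genes 239 reached 0.9 with Itgax and 259 with Itgb2.

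The remaining integrin subunits were examined as a list that shares no gene with the 7. Of 19 subunits 15 were tested and limma called 0 of them, with 1 at an unadjusted p under 0.05, a level that 5.86% of all genes passed (3.15% higher and 2.71% lower in transgenic samples). The median log2 difference was 0.01, and 0.05 within slide 2. Itgb4, the beta chain that pairs with alpha6, stood at 179%, 156% and 165% in transgenic samples, against 303%, 325% and 327% in wild-type samples. The groups were apart, with a log2 difference of -0.94 ± 0.09 (SE, limma adjusted p = 0.0610). The adjusted p ranged from 0.0138 to 0.357 over the settings, and 4 of them called Itgb4. Itgae, a partner of beta7, had -0.26 ± 0.11, and Itgav, Itga10, Itgb3 and Itga3 lay between -0.16 and 0.16, or between -0.12 and 0.25 within slide 2 (limma adjusted p = 0.817 for each of the 5). Itgb1, the beta chain that also pairs with alpha4, had -0.01 ± 0.09, and 0.05 within slide 2. Itga2, Itga2b, Itga5 and Itgb6 were too dim to be tested.

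Of 19 genes for ligands and counter-receptors, 14 were tested and limma called 0, with 1 at an unadjusted p under 0.05. The median log2 difference was 0.21, and 9 of the 14 were positive. Icam1, the adhesion molecule bound by LFA-1 and Mac-1, had 13.7%, 17.5% and 16.6% in transgenic samples, against 12.1%, 11.98% and 10.4% in wild-type samples (log2 difference 0.46 ± 0.13, SE). The values were apart, but limma's adjusted p was 0.640. F11r, which encodes a junctional ligand of LFA-1, had 0.43 ± 0.18, but 0.24 within slide 2, since wild-type replicate 1 was its lowest array. Icam5, the neuronal ligand of LFA-1, had 0.43 ± 0.21. C3, the complement component whose fragment iC3b is bound by CD11b and CD11c with CD18, had 0.31 ± 0.15. Ccn1 had 0.44 ± 0.25 and Jam3 -0.16 ± 0.09 (limma adjusted p = 0.817 for each of these 5). The fibrinogen genes Fga, Fgb and Fgg were too dim to be tested, as were Emilin1 and Gp1ba.

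Madcam1, the gut homing ligand of alpha4beta7, was singled out after its values were seen. It had 18.0%, 19.7% and 18.1% in transgenic samples, against 0.815%, 16.5% and 18.2% in wild-type samples. The single low value was wild-type replicate 1 of slide 1, and the log2 difference of 1.57 ± 1.22 (SE) was 0.10 within slide 2.

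Among 25 genes of integrin activation and adaptors 24 were tested and limma called 0, with 5 at an unadjusted p under 0.05, all 5 positive, beside 3.15% of all genes in that direction. The median log2 difference was 0.03. Apbb1ip, whose product RIAM links Rap1 to talin, had 0.63 ± 0.10 (SE, limma adjusted p = 0.217), Parvg, a parvin of blood cells, 0.76 ± 0.14, and Fyb, an adaptor of blood cells, 0.63 ± 0.12 (0.276 and 0.307). Fermt3, the kindlin of blood cells, had 7.41%, 5.598% and 6.76% in transgenic samples, against 1.55%, 4.62% and 3.81% in wild-type samples. Its log2 difference was 1.12 ± 0.42 (SE, limma adjusted p = 0.817), and 0.64 within slide 2. Fermt3 is among the 5, but it passed the filter through transgenic samples alone, so it adds no support to that count. It was well above background on 3 of 3 transgenic and 2 of 3 wild-type arrays. Fermt1 was too dim to be tested. The broadly expressed counterparts Fermt2, Tln1 and Ilk, named after their values were seen, had -0.23 ± 0.11, 0.11 ± 0.09 and 0.04 ± 0.09. Within slide 2 these were -0.14, 0.15 and 0.08.

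Among 20 genes that signal from bound leukocyte integrins into the cell 19 were tested. Limma called 0, with 11 at an unadjusted p under 0.05, all positive, beside 3.15% of all genes. In this list 12 had groups that did not overlap in the higher direction, beside 7.4% of all genes. The median log2 difference was 0.38, and within slide 2 it was 0.42 with all 19 positive. Tyrobp, the ITAM adaptor of myeloid receptors, stood at 436%, 395% and 496% in transgenic samples, against 252%, 205% and 237% in wild-type samples. Its groups were apart, with a log2 difference of 0.93 ± 0.13 (SE, limma adjusted p = 0.151, range 0.0388 to 0.616 over the settings). Fcer1g, the other ITAM adaptor of this list, had 0.82 ± 0.13 and Rac2, a GTPase of blood cells, 0.74 ± 0.12 (limma adjusted p = 0.211 and 0.191). Fgr was too dim to be tested.

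Among 9 transcription factors known to act at leukocyte integrin promoters 8 were tested, limma called 0 and 2 had an unadjusted p under 0.05, both positive, beside 3.15% of all genes. Irf8 had a log2 difference of 0.70 ± 0.15 (SE, limma adjusted p = 0.366) and Runx1 of 0.52 ± 0.15 (0.668). The median was 0.19, and 0.11 within slide 2. Sp1 had -0.18 ± 0.09 and Cebpa 0.20 ± 0.13 (0.817 each), against -0.11 and 0.31 within slide 2. Spi1, which encodes PU.1, was too dim to be tested.

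**Figure D4:**
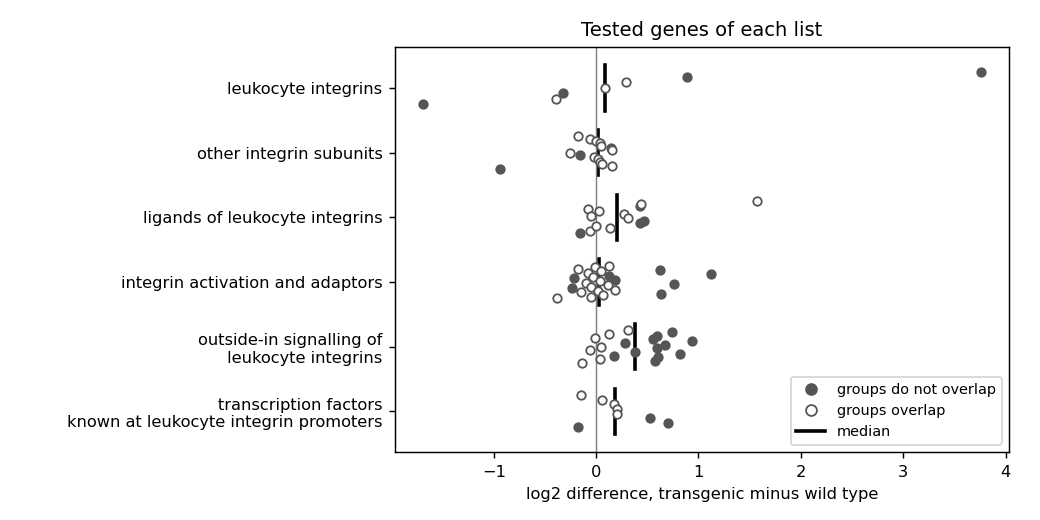
The log2 difference, transgenic minus wild type, of each tested gene of the 7 leukocyte integrins and of 5 lists of related genes. Filled points have groups that do not overlap, open points overlap and bars mark medians. The signalling list has its median at 0.38 and the other integrin subunits at 0.01.

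Markers of the cells that can carry these integrins were read on the same arrays. In whole tissue more cells of a type and more RNA per cell cannot be told apart. All 11 microglial markers were well above background throughout. Of these 10 had a positive log2 difference, and the median was 0.29, or 0.25 within slide 2 with 7 positive. Their summed level, in percent of the 75th percentile, was 18808 to 20839 in transgenic samples, against 8567 to 21608 in wild-type samples. The 8567 was wild-type replicate 1 of slide 1, and the wild-type samples of slide 2 had 21194 and 21608, above every transgenic sample. Siglech made up most of it, and without that gene the sum was 3689 to 3992 in transgenic samples, against 2796 to 3192 in wild-type samples, the lowest of these again being replicate 1. All 7 markers of border macrophages were well above background, and their sum was 188 to 213 in transgenic samples, against 163 to 182 in wild-type samples.

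Markers of blood leukocytes were partly at background. Of 8 neutrophil markers 5 were above background on all arrays and Retnlg, Ngp and Mpo on some, with a sum of 177 to 213 in transgenic samples, against 102 to 170 in wild-type samples (125 and 170 within slide 2). Of 7 monocyte markers 6 were above background on all arrays and Plac8 on some. Their sum was 1484 to 1668 in transgenic samples, against 1382 to 1660 in wild-type samples. Ly6c2 made up most of that sum. Without that gene it was 149 to 220 in transgenic samples, against 109 to 145 in wild-type samples, the lowest being replicate 1. Of the 7 markers 4 had a positive log2 difference and 3 a negative one. Of 6 dendritic cell markers Xcr1 and Clec9a were above background on no array and Cd209a and Ccr7 on some. The sum of the 6 was 353 to 382 in transgenic samples, against 362 to 449 in wild-type samples (362 and 375 within slide 2). Flt3 made up most of that sum. With Flt3 left out it was 96.1 to 109 in transgenic samples, against 105 to 132 in wild-type samples, the highest being replicate 1. Of 10 T cell markers Cd3g and Cd8a were above background on no array and Cd3d and Cd2 on some, with a sum of 529 to 671 in transgenic samples, against 274 to 547 in wild-type samples. The 274 was wild-type replicate 1, the slide 2 samples had 488 and 547, and the median log2 difference was 0.39 over all arrays and 0.09 within slide 2. Of 5 B cell markers Cd79a was above background on no array and Cd79b on some, with a sum of 23.1 to 30.6 in transgenic samples, against 22.3 to 35.9 in wild-type samples (35.1 and 35.9 within slide 2). Of 6 natural killer cell markers Ncr1 was above background on no array and Nkg7 on some, with a sum of 5250 to 5498 in transgenic samples, against 2000 to 5741 in wild-type samples. The 2000 was wild-type replicate 1, and the slide 2 samples had 5660 and 5741. Klrb1c made up most of that sum. Without that gene it was 119 to 171 in transgenic samples, against 128 to 173 in wild-type samples. The median log2 difference of the natural killer cell markers was 0.26 over all arrays and 0.0013 within slide 2. Limma called 0 of the markers in these 8 lists, with 12 higher and 1 lower in transgenic samples at an unadjusted p under 0.05, beside 3.15% and 2.71% of all genes. Among the 12 is Cd2, which passed the filter through transgenic samples alone, so it adds no support to that count. It was well above background on 3 of 3 transgenic and 0 of 3 wild-type arrays. Their part in the integrin values was not tested.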

How the data were processed

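Total RNA of 3 transgenic and 3 wild-type samples was measured on Agilent single-colour arrays. Per the file headers, spots were read with Feature Extraction 10.7.1.1 on build mm9. The submitters' processing notes name version 9.5.1.1. The deposited scanner files give linear spot intensity after the software's own background subtraction, per the file headers, and flag spots above background. The authors' deposited value table holds intensity values that matched a quantile normalization of the scanner signals within 0.01 log2 for at least 99.986% of probes, with a median of 59.9 in each column, linear and not centred. It was used only as an alternative.

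Control spots and the 39 to 84 outlier spots of each array were removed, repeated spots were averaged, and saturation occurred in 0 spots. Signals were divided by their array's 75th percentile over probes, taken to log2 and fitted in R 4.3.3 by lmFit and eBayes of limma 3.58.1, without covariates. A gene was called at a Benjamini-Hochberg adjusted p under 0.05 over all 24932 genes. Of 56605 probes, 32994 were named by accession through RefSeq's GRCm38.p6 gene table, 10224 by symbol and 520 by synonym, and 12867 kept the files' name. The fit was tested on simulated data. The number of arrays limits the precision.

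The genes, the lists and the tests were chosen with earlier results of these data known. All 7 genes were named whatever their values. From each list of related genes, called genes and those with the smallest p were named (up to 6 for other subunits and ligands, up to 4 otherwise), as were the 3 named genes most like Itgax and Itgb2. Some genes that this rule names are not reported here. Alternatives covered background correction, scaling, the value table, the filter on dim probes, slide as a block, the variance model, the probe per gene and leaving out each array. Leaving out the Itgam probe with a CA run was added after seeing the data.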

Additional observations from a re-analysis of the deposited data

How the results depend on the processing

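Itgax and Itgb2 stayed higher and Itgad and Itgam lower in transgenic samples under every alternative that gave them a value, and Itgb7 stayed lower. For Itgam the groups were apart only on the probe with the CA run. Every Itgax value came from the same probe. On the other 2 Itgax probes, too dim to be tested, the groups overlapped, with log2 differences of 1.13 and -0.27. Itga4 was positive under 14 of 18 alternatives and Itgal under 17 of 19. With normexp background correction, whose offset of 50 units shrinks dim differences, the log2 differences were 1.42 for Itgax, 0.44 for Itgb2 and -0.82 for Itgad. The second probe gave -2.64 for Itgad, -0.093 for Itga4 and -0.14 for Itgam, the last also when the probe with the CA run was left out. With 1 array left out the log2 difference was 3.58 to 3.99 for Itgax, 0.83 to 0.99 for Itgb2, -1.96 to -1.32 for Itgad, -0.41 to -0.24 for Itgam, 0.08 to 0.55 for Itgal, -0.52 to -0.30 for Itgb7 and -0.00022 to 0.13 for Itga4. Without wild-type replicate 1 the overlapping second probe stood for Itgal. The number of the 7 genes called was 0 with quantile normalization, with the authors' value table, and with the filter for signal above background on all 6 arrays, which leaves Itgax untested. It was 2 with array weights and between 0 and 1 with 1 array left out. It was 0 without wild-type replicate 2 or 3, and 0 without transgenic replicate 1, 2 or 3. The cause was not tested, though fewer samples enter those fits. Among the other integrin subunits 1 gene, Itgb4, was called with normexp, with the filter for all 6 arrays, with an intensity trend and with array weights. Array weights called 1 signalling gene, Tyrobp. Over all genes, 11 were called, against 29 with normexp, 6 with no filter, 23 with the filter for all 6 arrays, 7 with slide as a block, 27 with an intensity trend, 95 with array weights, 24 with probes averaged per gene, and 0 to 6 with 1 array left out. It was 0 without transgenic replicate 2, where 1208 genes had an unadjusted p under 0.05. Signals near background limit Itgax in wild-type samples and the second Itgad probe in transgenic samples.

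No paired analysis was possible because the labels give no replicate numbers and the sample titles' numbers are not said to pair samples.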
